A study of Mus musculus with 6 samples.

Results

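Keratins are the intermediate filament proteins of epithelial cells. All genes of the deposited table of normalized values whose name is Krt followed by a number and at most 1 letter were taken, which leaves out the hair-fibre associated proteins and Krtdap. This gave 43 keratins of 21948 genes. The RNA came from the gingiva, the part of the oral mucosa that surrounds the teeth, of C57BL/6 mice at 12 weeks of age. The labels name 3 libraries Plg WT and 3 Plg KO, and the series describes the former as littermates of the mice that lack Plg, the gene for plasminogen, from which the clot-dissolving protease plasmin is made. They give no allele for the deletion and do not say whether each library is 1 animal, so p-values measure the spread between libraries, which may be technical. Plg itself had 2 counts each in Plg KO 1 and Plg WT 3 and 0 in the other libraries, so it does not check the genotype labels in this tissue. The Y-linked Ddx3y had 1838 counts in Plg KO 1 and 1475 in Plg WT 3, against at most 2 in any other library, so each group holds 1 library that differs in sex from the other 2.

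Keratin filaments are built from pairs of a type I and a type II protein, and which pair a cell makes tells its place in the epithelium. Basal cells of stratified epithelia make Krt5 with Krt14. On leaving the basal layer, cells switch to Krt4 with Krt13 in soft mucosa, to Krt1 with Krt10 in cornified epithelium, and to Krt76 in the cornified masticatory mucosa of the palate and gingiva. Krt6a, Krt6b, Krt16 and Krt17 are the keratins that skin turns on after injury and in hyperproliferation, and oral epithelium makes them without injury. Krt8, Krt18 and Krt7 belong to simple epithelia such as those of glands, and the hard keratins to hair, nail and the filiform papillae of the tongue. In the mouse the type I genes other than Krt18 lie in a cluster on chromosome 11 and the type II genes in a cluster on chromosome 15.

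Several of these genes are so alike that short reads cannot always tell them apart. The coding sequences of Krt6a and Krt6b were 97.8% identical over 1662 aligned bases, with a longest identical run of 280 bases, whereas each read covered 37 bases. The stretch of 60 aligned bases in which they differ most is given here, followed by the same for Krt14 and Krt16, which were 86.2% identical. Capitals mark the bases that differ between the 2 genes of a pair, and the sequences are those of GENCODE release M21 on GRCm38, all from the minus strand and each within a single coding exon. The Krt6 stretches run from base 817 to 876 of either coding sequence, at chr15:101692484-101692543 for Krt6a and chr15:101678303-101678362 for Krt6b. They differ at 10 bases.
Krt6a: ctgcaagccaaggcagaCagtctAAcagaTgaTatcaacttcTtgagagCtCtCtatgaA
Krt6b: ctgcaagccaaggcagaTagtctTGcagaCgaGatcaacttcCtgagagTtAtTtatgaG
The stretch of Krt14 runs from base 973 to 1032 (chr11:100204463-100204522) and that of Krt16 from base 949 to 1008 (chr11:100247141-100247200). They differ at 24 bases.
Krt14: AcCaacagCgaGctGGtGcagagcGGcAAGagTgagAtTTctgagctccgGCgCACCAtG
Krt16: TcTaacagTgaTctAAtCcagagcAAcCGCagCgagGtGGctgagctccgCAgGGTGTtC
Of all windows of 37 bases in the longest annotated coding transcript, 65.1% for Krt6a, 54.5% for Krt6b, 46.7% for Krt16 and 33.5% for Krt8 also occur in an annotated transcript of another gene. The share was 23.8% for Krt14, 14.1% for Krt5, 11.2% for Krt17 and 5.85% for Krt18, and 0 windows were shared for Krt13, Krt24 and Krt23. These shares are of single windows, whereas the reads came in pairs, and a pair can be told apart where either read can. How such reads were counted is not stated in the material used here, so levels of Krt6a, Krt6b, Krt16 and Krt8 are uncertain where they are set against other genes.

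No change in any keratin passed the test between Plg KO and Plg WT gingiva. This includes the 4 stress keratins, whose fitted folds, Plg KO over Plg WT, ran from 0.855 (Krt6a) to 0.977 (Krt6b). Their 95% intervals reached down to 0.659 and up to 1.33. Keratin transcripts made up 5.62%, 6.61% and 6.58% of all gene counts in Plg WT 1, 2 and 3. The Plg KO libraries had 6.12%, 6.54% and 5.47%, so the ranges overlap. Of the 43 keratins, 34 had enough counts to be tested with edgeR's quasi-likelihood test. At an adjusted p under 0.05 (Benjamini-Hochberg over all 17757 genes tested) 0 were called, by edgeR, by DESeq2 and by limma-voom, against 0.237% of all genes by edgeR. At an unadjusted p under 0.05 edgeR counted 2 lower in Plg KO, Krt32 and Krt2, and 0 higher, where 4.27% of all genes were lower and 4.97% higher. DESeq2 counted 3 lower and limma-voom 2 lower at that threshold, and both 0 higher. Groups that do not overlap were found for 1 of the 34 keratins with Plg KO lower and for 0 with Plg KO higher, beside 7.18% and 7.51% of all genes. The fitted log2 differences were negative for 25 keratins and positive for 9, with a median of -0.18, beside a median of -0.00 for all genes.

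**Figure D1:**
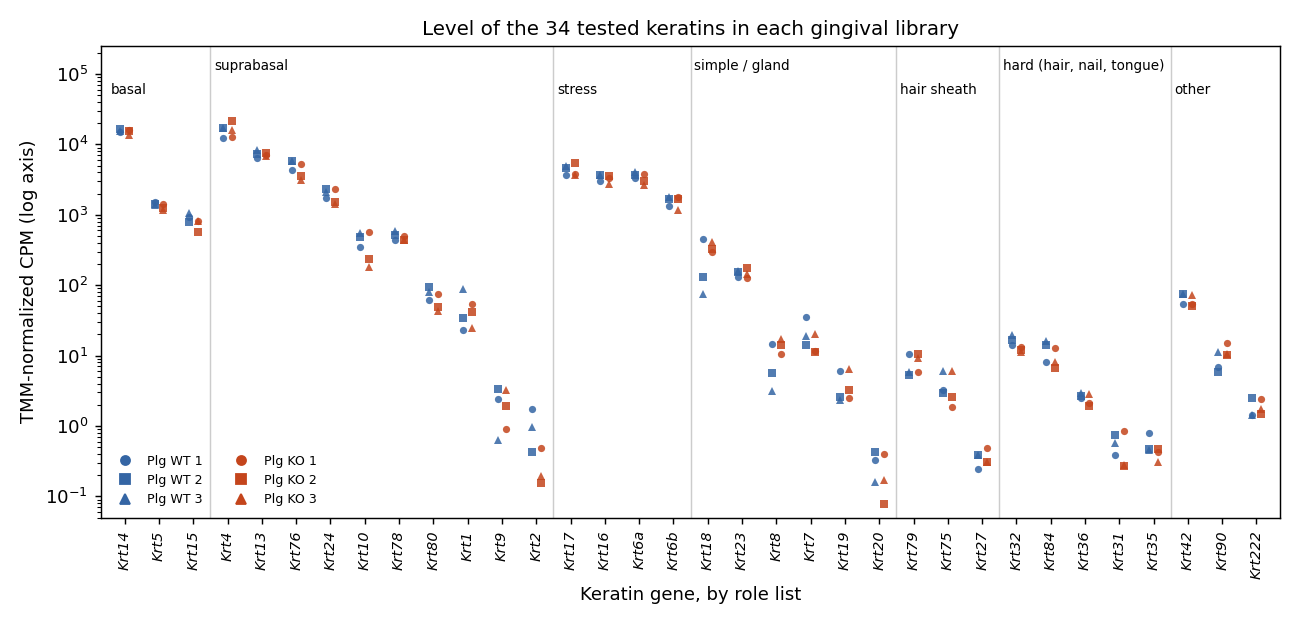
Level of the 34 tested keratins in each library, as TMM-normalized CPM on a log axis and not divided by gene length, with Plg WT in blue and Plg KO in red-orange and 1 symbol for each library number. Levels reach from under 1 to 21312 CPM, and the 2 groups overlap for every gene shown except Krt32.

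**Figure D2:**
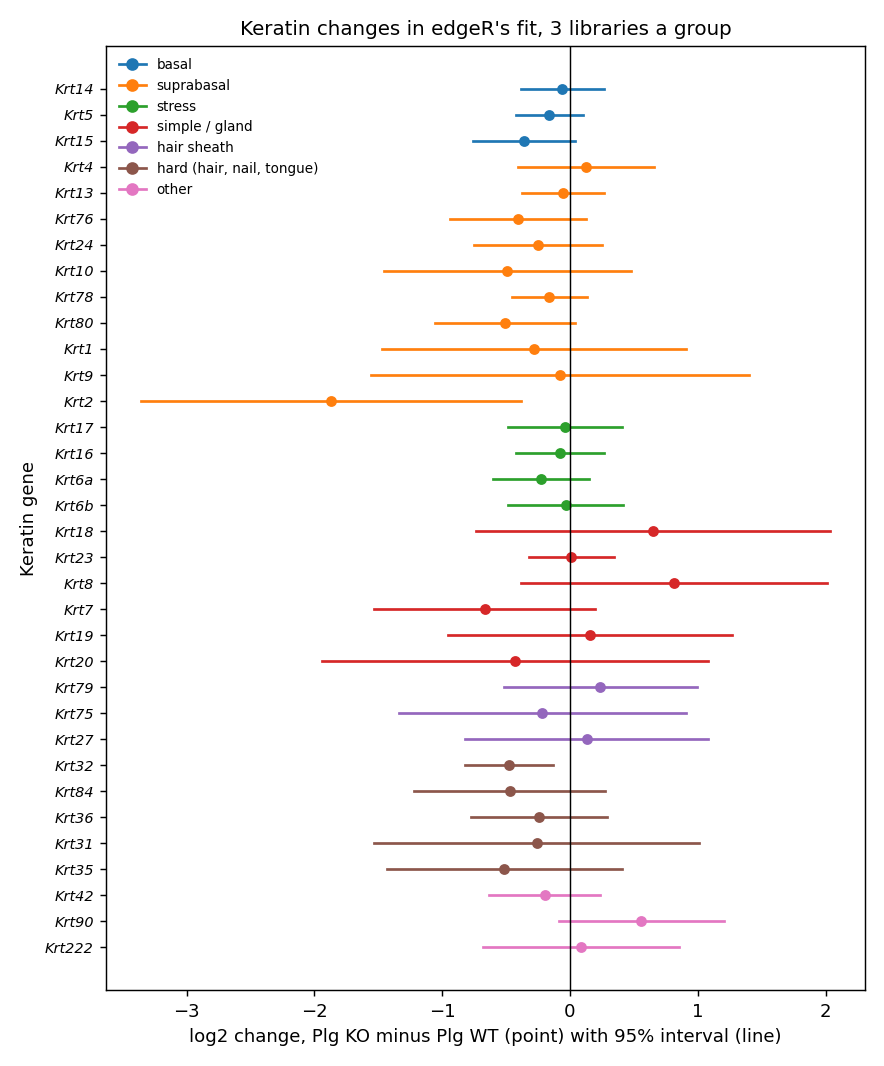
Fitted log2 change (Plg KO minus Plg WT, points) and 95% interval (lines) of each tested keratin, coloured by role. Intervals of the basal and stress keratins are narrow and include 0, those of Krt32 and Krt2 lie below 0 before adjustment for the number of genes, and those of Krt18, Krt8 and Krt10 are wide.

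Divided by exon length, the most abundant keratins were the basal Krt14, at a mean of 8744 CPM (counts scaled to library size by TMM, a trimmed mean of M-values) per kilobase of exon, and the mucosal suprabasal Krt4 at 7527. They were followed by Krt13 at 3977, the stress keratins Krt17 and Krt16 at 2815 and 2126, Krt76 at 2013 and Krt6a at 1410. Krt24, a type I keratin, stood at 1028, the stress keratin Krt6b at 709, basal Krt5 at 617 and basal Krt15 at 467, and every other keratin was at or under 197. The cornified-type keratins were low by the same measure, Krt10 at 184 and Krt1 at 10.1 CPM per kilobase. The labelled tissue thus shows the keratins of stratified oral epithelium, with the masticatory Krt76 well above Krt1 and Krt10.

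The 3 large lists took similar shares of this pool in every library. Basal keratins held 33.5%, 30.7% and 28.8% of all keratin counts per exon length in Plg WT 1, 2 and 3, and the Plg KO libraries had 32.5%, 28.1% and 30.6%. Suprabasal keratins held 43.1% to 47.6% in the Plg WT libraries and 44.3% to 48.3% in the Plg KO libraries. The share of the stress keratins was 21.7%, 21.9% and 22.9% in the Plg WT libraries, where Plg KO had 22.1%, 22.5% and 20.3%. All 3 of these shares overlap between the groups, and no test was made of them. The small lists varied more. Simple-epithelium keratins held 0.457% to 1.44% in the Plg WT libraries and 0.943% to 1.39% in the Plg KO libraries. Hard keratins held 0.0475%, 0.0511% and 0.0591% in the Plg WT libraries, where Plg KO had 0.0469%, 0.0329% and 0.0427%, the only list whose groups do not overlap, by a narrow margin.

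**Figure D3:**
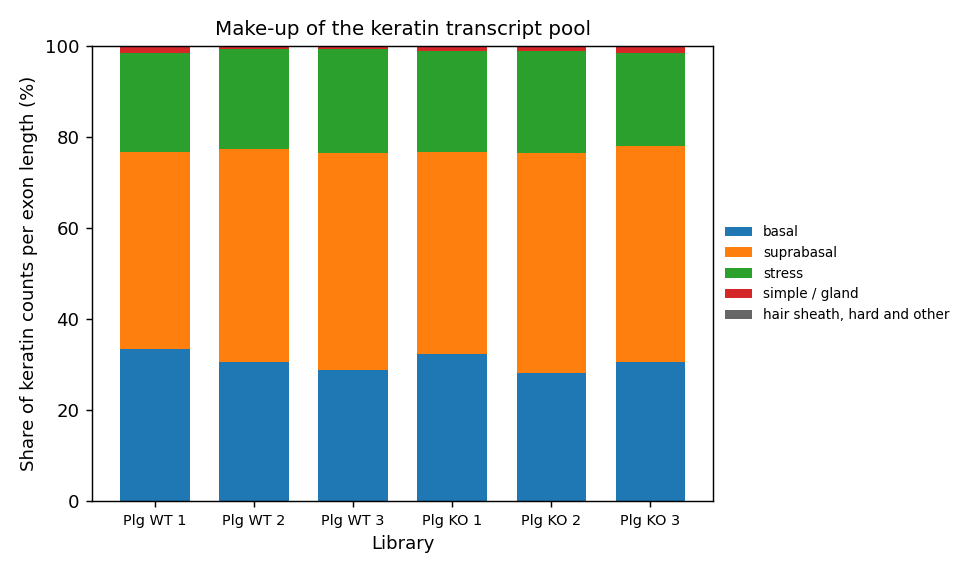
Share of each role list in the keratin counts per exon length (percent, stacked bars from 0 to 100) in each library. Stress keratins take 20.3% to 22.9% in every library of either group, and the hair sheath, hard and other keratins together are too few to see.

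Basal keratins anchor the proliferating layer. None of the 3 passed the test. Krt14 (ENSMUSG00000045545, GRCm38 chromosome 11, 100203162 to 100207548) had 14911, 16724 and 15438 CPM in Plg WT 1, 2 and 3 and 15964, 15606 and 13590 CPM in Plg KO 1, 2 and 3. Only Plg KO 3 lay below every Plg WT library. Its fitted fold, Plg KO over Plg WT, was 0.959 with a 95% interval of 0.765 to 1.20. Krt5, its partner, had 1493, 1420 and 1378 CPM in Plg WT and 1412, 1261 and 1165 CPM in Plg KO, a fold of 0.894 (0.747 to 1.07). Krt15, a keratin of slowly cycling basal cells, had 927, 800.5 and 1051 CPM in Plg WT and 802, 565 and 802 CPM in Plg KO. Its values overlap between the groups, and its log2 difference of -0.36 ± 0.17 (SE) had an edgeR adjusted p of 0.595. Transcripts of dividing cells differed between the same libraries: the summed level of 5 markers (Mki67, Top2a, Birc5, Ccna2 and Cdk1) was 125 to 164 CPM in Plg WT and 247 to 308 CPM in Plg KO. Of these 5, Birc5 (log2 change 1.05 ± 0.08, adjusted p = 0.0107 by edgeR) and Ccna2 (1.25 ± 0.13, adjusted p = 0.0198) passed and rose, beside 0.237% of all genes called in either direction. All 5 were higher in Plg KO without overlap of the groups, beside 7.51% of all genes. The part of cell division in the basal keratin values was not tested, and in bulk RNA fewer cells of a type and less RNA per cell cannot be told apart.

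The stress keratins were abundant in both groups and none passed. Krt16 had 2975, 3654 and 3625 CPM in Plg WT 1, 2 and 3 and 3356, 3581 and 2769 CPM in Plg KO 1, 2 and 3, a fold of 0.947 with a 95% interval of 0.745 to 1.20. Krt17 had 3722, 4640 and 4911 CPM in Plg WT and 3763, 5432 and 3728 CPM in Plg KO, a fold of 0.974 (0.713 to 1.33). For both genes the libraries of the 2 groups interleave. Krt6a had 3351, 3612 and 4066 CPM in Plg WT and 3767, 3017 and 2649 CPM in Plg KO, a fold of 0.855 (0.659 to 1.11). Krt6b had 1328, 1689 and 1791 CPM in Plg WT and 1813, 1699 and 1183 CPM in Plg KO, a fold of 0.977 (0.715 to 1.33). Summed, which takes out any division of shared reads between them, Krt6a and Krt6b had 4679, 5301 and 5857 CPM in Plg WT and 5580, 4716 and 3832 CPM in Plg KO, and the ranges overlap. These intervals include no change, moderate falls and rises of up to 1.33 fold. A p that misses the threshold does not show that the groups are alike. Of 11 transcription factors known to activate these genes, 0 were called by edgeR or had an unadjusted p under 0.05, beside 0.237% of all genes called and 4.27% lower and 4.97% higher at that p. Their median log2 difference was -0.07. Groups did not overlap for 1 of the 11, Cebpb, with 1.95 to 2.53 CPM in Plg WT and 1.65 to 1.84 CPM in Plg KO, beside 7.18% of all genes. The immediate-early factor Egr1 had the smallest p of the 11, with overlapping groups at 5.02, 9.46 and 1.92 CPM in Plg WT and 11.01, 7.19 and 8.46 CPM in Plg KO.

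Suprabasal keratins mark cells that have left the basal layer, and none of the 10 tested passed. The soft-mucosa pair overlapped between the groups. Krt13 had 6501, 7375 and 8237 CPM in Plg WT 1, 2 and 3 and 7017, 7530 and 6796 CPM in Plg KO 1, 2 and 3, a fold of 0.965 (95% interval 0.773 to 1.21). Krt4 had 12291, 16951 and 16831 CPM in Plg WT and 12924, 21312 and 16017 CPM in Plg KO, a fold of 1.09 (0.754 to 1.58). The ratio of Krt4 to Krt13 per exon length ran from 1.61 to 1.96 in Plg WT and from 1.57 to 2.42 in Plg KO, with Plg KO 2 the highest. Krt78, a type II keratin of differentiated cells, had 438 to 578 CPM in Plg WT and 434 to 492 CPM in Plg KO, and Krt9, the keratin of palm and sole, at most 3.32 CPM in any library.

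Several keratins of differentiated cells were low in the same 2 Plg KO libraries. Krt76 (ENSMUSG00000075402, chromosome 15, 101884351 to 101892920), the masticatory keratin, had 4385, 5710 and 5821 CPM in Plg WT and 5335, 3599 and 3079 CPM in Plg KO 1, 2 and 3. Krt10 had 344, 481 and 543 CPM in Plg WT and 562, 232 and 179 CPM in Plg KO. Krt24 had 1724, 2336 and 2127 CPM in Plg WT and 2290, 1518 and 1398 CPM in Plg KO. In all 3 genes Plg KO 2 and 3 lay below every Plg WT library and Plg KO 1 lay within or above them. For suprabasal Krt2, too, only Plg KO 2 and 3 lay below every Plg WT library. Among the tested keratins of other kinds, the same held for basal Krt5, stress Krt6a and hard Krt31. How many of all genes have this pattern was not counted, so it is not shown to be particular to keratins. Krt80, a type II keratin of differentiating cells, had the same 2 libraries lowest, with 62.4, 93.7 and 80.6 CPM in Plg WT and 74.7, 48.9 and 42.8 CPM in Plg KO, while Krt1 did not, with 23.1, 33.7 and 89.6 CPM in Plg WT and 54.9, 41.1 and 24.5 CPM in Plg KO. The log2 differences were -0.41 ± 0.23 for Krt76, -0.49 ± 0.41 for Krt10, -0.25 ± 0.21 for Krt24 and -0.51 ± 0.23 for Krt80, and the edgeR adjusted p ran from 0.577 to 0.790. Krt10, Krt80 and Krt1 are named because of their values.

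These differences depended on single Plg KO libraries. Without Plg KO 1, 8 keratins were lower in Plg KO at an unadjusted p under 0.05 (Krt10, Krt24, Krt80, Krt84, Krt32, Krt6a, Krt2 and Krt76), of 34 tested, beside 4.94% of all genes in that fit. Plg KO 1 is singled out because it was the high Plg KO library for these genes, so this count restates that observation and is no support for it. None of the 8 passed after adjustment, and the smallest adjusted p of any keratin there was 0.175, for Krt10 at a log2 difference of -1.15 ± 0.22. Without Plg KO 3 the log2 differences were smaller, at -0.20 for Krt10, -0.25 for Krt76, -0.12 for Krt24 and -0.35 for Krt80. Without Plg KO 2 they were -0.30, -0.33, -0.16 and -0.42 in that order. With all libraries and a term for sex, Krt10 had -0.66 ± 0.25 (edgeR adjusted p = 0.427, and 0.175 to 0.994 over the alternatives). Plg KO 1 also stood apart in other tissue markers: the summed level of 5 skeletal muscle genes was 2078 CPM there, against 8275 and 9722 CPM in Plg KO 2 and 3 and 4893 to 9272 CPM in Plg WT. The 6 general epithelial markers summed to 6533, 5990 and 4591 CPM in Plg KO 1, 2 and 3 and to 5206 to 6158 CPM in Plg WT. Most of this sum was Sfn and Perp, which, with Trp63, were lowest in Plg KO 3. Cdh1, Epcam and Dsg3 were not lowest there, and Epcam was highest there, at 191 CPM. Plg KO 1 and Plg WT 3 were also the libraries with high Ddx3y counts, 1838 and 1475. Each was the highest of its group for Krt76, Krt10 and Krt1, while Plg WT 2 was highest in Plg WT for Krt24 and Krt80. With the sex term the log2 differences were -0.44 ± 0.17 for Krt76, -0.28 ± 0.18 for Krt24 and -0.55 ± 0.20 for Krt80. That term stood beside genotype in the fit, and its own part in the keratin values was not tested, nor was that of tissue make-up.

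**Figure D4:**
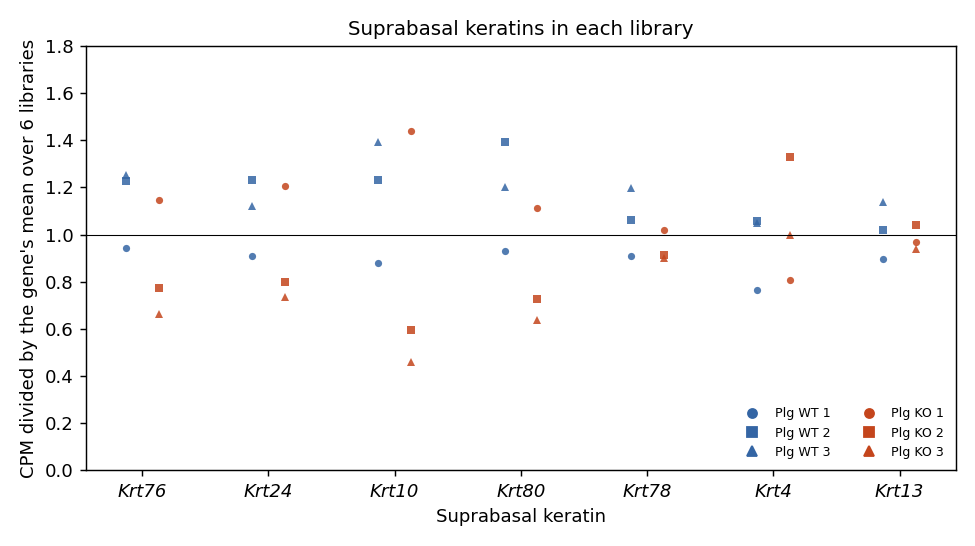
Level of 7 suprabasal keratins in each library, divided by the gene's mean over the 6 libraries (1 is the mean), with Plg WT in blue and Plg KO in red-orange. For Krt76, Krt24, Krt10 and Krt80, Plg KO 2 and 3 sit below every Plg WT library and Plg KO 1 among or above them, whereas for Krt13 the groups interleave.

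Krt2 and Krt32 had the smallest p among keratins. Krt2, a type II keratin of late cornified cells, had 1.75, 0.428 and 0.961 CPM in Plg WT 1, 2 and 3 and 0.486, 0.155 and 0.196 CPM in Plg KO 1, 2 and 3, on a total of 135 counts, and Plg KO 1 lay above Plg WT 2. Its log2 difference was -1.87 ± 0.64, with edgeR adjusted p = 0.392, and 0.208 to 0.844 over the alternatives. Krt32 (ENSMUSG00000046095, chromosome 11, 100080848 to 100088226), a type I hard keratin, had 14.2, 16.8 and 19.7 CPM in Plg WT and 13.04, 12.1 and 11.4 CPM in Plg KO. All 3 Plg KO values lay below the lowest Plg WT value. The log2 difference was -0.47 ± 0.15 (fold 0.720, 95% interval 0.567 to 0.914), with an adjusted p of 0.351, and 0.120 to 0.796 over the alternatives.

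Other hard keratins were rare. Krt84, like Krt36 a hard keratin of the filiform papillae of the tongue, had 8.08, 14.1 and 16.3 CPM in Plg WT and 12.8, 6.72 and 8.18 CPM in Plg KO. Krt36 had 2.51, 2.64 and 2.95 CPM in Plg WT and 2.13, 1.90 and 2.80 CPM in Plg KO. Krt31 had at most 0.837 CPM in any library and Krt35 at most 0.791. The groups overlap for all 4 genes. The 5 tested hard keratins had log2 differences of -0.51 to -0.24 and 0 were called. Of the hair follicle sheath keratins, Krt79, also a keratin of sebaceous ducts, had 5.21 to 10.6 CPM in Plg WT and 5.88 to 10.5 CPM in Plg KO. Krt75 had 2.96 to 5.96 and 1.84 to 6.08 CPM, and Krt27 stayed under 0.5 CPM. Markers of hair itself were close to 0: of 4 hair-fibre associated protein genes, Krtap6-2 and Krtap8-1 had 0 counts, Krtap11-1 had 1 and Krtap3-1 had 5 over all 6 libraries. All 9 markers of hair and its follicle summed to 27.0 to 30.7 CPM in Plg WT and 21.2 to 34.4 CPM in Plg KO. Most of this sum was Msx2 and Tchh in every library, and the part of hair follicles in it was not tested. Of 7 transcription factors of hair and nail, 0 were called, beside 0.237% of all genes. Dlx3, the only 1 of the 7 with an unadjusted p under 0.05, beside 4.27% of all genes lower at that p, stood at -0.51 ± 0.20 on the log2 scale (edgeR adjusted p = 0.482).

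None of the 6 simple-epithelium keratins passed the test, and Krt18 and Krt8 were low in the libraries where gland markers were low. Krt18 (ENSMUSG00000023043, chromosome 15, 102028180 to 102032027) had 455 CPM in Plg WT 1 but 130 and 74.6 CPM in Plg WT 2 and 3, and 298, 324 and 413 CPM in Plg KO 1, 2 and 3. Its partner Krt8 had 14.8, 5.61 and 3.14 CPM in Plg WT and 10.6, 13.9 and 16.9 CPM in Plg KO. In both genes Plg WT 2 and 3 were the lowest libraries, and Plg WT 1 was above every Plg KO library for Krt18 and among them for Krt8. The summed level of 12 salivary gland markers was also lowest in Plg WT 2 and 3, at 6073, 1647 and 1058 CPM in Plg WT and 4588, 4791 and 6451 CPM in Plg KO. Most of this sum was Bpifb2, with 4566, 1362 and 718 CPM in Plg WT and 3648, 3593 and 4893 CPM in Plg KO. Muc19, Dcpp1, Dcpp2, Dcpp3, Bpifa2, Aqp5 and Ltf were lowest in Plg WT 2 and 3 too, whereas Amy1 was lowest in Plg KO 1. Of the 9 tested gland markers, 8 had positive log2 differences and 0 were called, and 1 of the 12 had 0 counts. The log2 difference was 0.65 ± 0.59 for Krt18 and 0.81 ± 0.51 for Krt8 (edgeR adjusted p = 0.810 and 0.706).

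Krt18 was the only keratin called in any fit, and only without Plg WT 1, where its log2 difference was 1.75 ± 0.26 (edgeR adjusted p = 0.0442, beside 1.02% of all genes called higher in that fit). Over all alternatives its adjusted p ran from 0.0442 to 0.994. The fit without Plg WT 1 compares Plg KO with the 2 Plg WT libraries of least gland signal, and the part of gland content in it was not tested. Krt8 had 1.66 ± 0.31 there, with an adjusted p of 0.0654. Per exon length, Krt8 stood at 0.0238 to 0.0316 of Krt18 over the libraries, though the 2 proteins form a pair. Low ratios were not particular to this pair: Krt1 stood at 0.0321 to 0.0850 of Krt10 and Krt5 at 0.0647 to 0.0801 of Krt14. Krt4 stood at 1.57 to 2.42 of Krt13. Of the windows of Krt8, 30.1% also occur in its pseudogene Krt8-ps, and the part of shared windows in the ratio was not tested. That pseudogene had 82 counts over the 6 libraries. Krt7, a keratin of ducts, did not share the pattern of Krt18, with 35.2, 14.1 and 19.1 CPM in Plg WT and 11.6, 11.2 and 20.2 CPM in Plg KO. Krt19, which also marks ducts, had 2.34 to 5.95 CPM in Plg WT and 2.48 to 6.36 CPM in Plg KO, and Krt20 had 52 counts over all libraries. Krt23 was even, with 129 to 158 CPM in Plg WT and 125 to 174 CPM in Plg KO and a fold of 1.01 (95% interval 0.799 to 1.27).

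**Figure D5:**
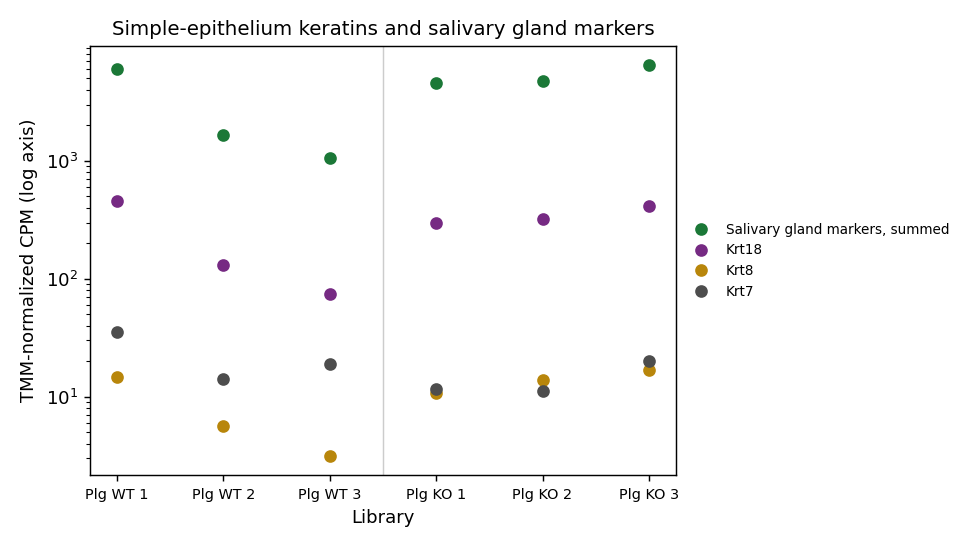
Level of Krt18, Krt8 and Krt7 and the summed level of 12 salivary gland markers in each library (TMM-normalized CPM, log axis). The gland marker sum, most of which is Bpifb2, and Krt18 and Krt8 are lowest in Plg WT 2 and 3, and Krt7 is not.

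Among the remaining keratins, Krt90, a type II keratin, had 6.96, 5.89 and 11.2 CPM in Plg WT and 15.01, 10.1 and 10.4 CPM in Plg KO, with 1 Plg WT library within the Plg KO range (log2 difference 0.56 ± 0.27, edgeR adjusted p = 0.612). Krt42, a relative of Krt17, had 50.5 to 72.7 CPM in Plg KO and 53.4 to 75.1 CPM in Plg WT, and Krt222 had 1.41 to 2.499 CPM over all libraries. The 9 keratins that were not tested had 13 to 51 counts over all libraries and summed to 0.855 to 2.08 CPM. They were Krt12, Krt28, Krt34, Krt71, Krt74, Krt77, Krt83, Krt86 and Krt87. The groups did not overlap for Krt74 (25 counts in all, Plg KO lower) and Krt86 (23 counts, Plg KO higher). The shares of genes without overlap, 7.18% lower and 7.51% higher, cover tested genes only, and none was taken for untested genes. Of the windows of Krt86, 47.6% also occur in another gene. None of the 9 was called in the 2 alternative fits that included them all, limma-trend on the deposited CPM and edgeR with no filter.

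Proteins that bundle keratin filaments or tie them to cell junctions were also measured. Genes of differentiating cells such as Tgm1, Tgm3, Rptn and Krtdap were counted in the same list. Of its 17 tested genes, 0 were called by edgeR, beside 0.237% of all genes. An unadjusted p under 0.05 was found for 1 of them, Dst, the hemidesmosomal plakin that binds keratins at the cell base. At that p 4.27% of all genes were lower. Dst had 219, 289 and 313 CPM in Plg WT 1, 2 and 3 and 197, 166 and 168 CPM in Plg KO 1, 2 and 3, so the groups do not overlap (log2 difference -0.63 ± 0.15, adjusted p = 0.210). The large linker Plec, with 5295 to 6482 CPM in Plg WT and 4647 to 4970 CPM in Plg KO, did not overlap either (-0.29 ± 0.13, adjusted p = 0.543). These were the only 2 of the 17 without overlap, beside 7.18% of all genes that were lower without overlap. The filament bundler Flg had 45.3, 66.0 and 81.5 CPM in Plg WT and 59.6, 34.5 and 33.4 CPM in Plg KO, so Plg KO 2 and 3 were lowest here as in Krt10. The median of the 17 was -0.14.

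Promoters of 3 keratins of the cornified and hard lists follow, since Plg KO 2 and 3 were the lowest libraries for both Krt76 and Krt10, and Krt32 was the tested keratin whose groups did not overlap. RefSeq promoter windows on GRCm38.p6 matched 28 of the 43 keratins, in 29 windows. These are the 100 bases before the annotated start on the minus strand of Krt76 (chr15:101892921-101893020), Krt10 (chr11:99389365-99389464) and Krt32 (chr11:100088270-100088369), with each TATAAA, the core of the TATA box, in capitals.
Krt76: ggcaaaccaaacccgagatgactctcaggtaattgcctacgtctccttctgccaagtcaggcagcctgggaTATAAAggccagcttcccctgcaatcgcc
Krt10: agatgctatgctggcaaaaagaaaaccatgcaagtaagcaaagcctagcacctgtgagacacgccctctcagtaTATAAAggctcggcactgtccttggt
Krt32: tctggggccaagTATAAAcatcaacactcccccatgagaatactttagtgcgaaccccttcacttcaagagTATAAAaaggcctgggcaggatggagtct
Searched on both strands, TATAAA was found in 13 of the 29 full keratin windows of 300 bases (44.8%) and in 13.6% of all 32851 windows. The AP-1 motif TGANTCA was found in 2 keratin windows (6.90%), both of Krt13, and in 7.81% of all windows. The stress keratins Krt6a, Krt6b, Krt16 and Krt17 were among those without a window, so neither motif was searched for in them. A match is a description of these letters and not a binding site.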

How the data were processed

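The authors deposited raw counts per gene for 48709 genes and a table of CPM after TMM scaling for 21948 genes with a count of at least 6 in some library. Per the labels' protocols, Nextera XT libraries, which do not mark strand, were read as 37 bp paired ends, which leaves reads of overlapping genes on either strand mixed. The tools listed are DESeq2, limma, edgeR and STAR 2.5.2a and the builds mm10 and GRCm38.p3, without roles, per the submitters' processing notes. No source used here gives the counting tool or annotation. Total gene counts were 26183389 to 36429150 per library. The CPM values gave whole reads for 100% of values (within 0.01 read or, above 1 read, a 0.01 share of the value), which rounded to the deposited counts. The 22 entries that name no gene took at most 3.55e-05% of a library and were left out.

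All genes were tested on raw counts with edgeR 4.0.16 (R 4.3.3), by its quasi-likelihood F test with TMM factors, filterByExpr (17757 genes), genotype as the only term and Benjamini-Hochberg adjustment. Called means an adjusted p under 0.05, and the SE is the log2 change divided by the square root of F. CPM in the text are on this fit's scale. Exon lengths and positions are from GENCODE M21. DESeq2 1.42.0 and limma 3.58.1 were among the alternatives, and the scripts were tested on simulated data. Named keratins were all stress keratins, those at an unadjusted p under 0.05 and the 4 most abundant of each other role list, with Krt1, Krt9, Krt10, Krt19, Krt20, Krt35, Krt78 and Krt80 added after their values were seen. From the partner, regulator and marker lists, called genes or otherwise up to 3 with the smallest p were named. Members and lists were chosen with earlier results of these data known. A list of epithelial transcription factors is not reported here.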

Additional observations from a re-analysis of the deposited data

How the results depend on the processing

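Under 18 alternatives (other scaling factors, library sizes without keratins, DESeq2, limma-voom, limma-trend on deposited CPM plus 0.5, other filters, a replicate block, a sex term, thinning, reads recovered from CPM, added after seeing the data, and leaving out each library), the count of keratins called lower stayed at 0, and that called higher was 0 except without Plg WT 1 (0 to 1 over the fits without 1 library). Where 1 library was left out, keratins at an unadjusted p under 0.05 numbered 0 to 2 higher (2 without Plg WT 1, 1 without Plg WT 3) and 1 to 8 lower (8 without Plg KO 1, 4 without Plg WT 1, 1 without Plg KO 2). They were 1 higher and 4 lower with limma-trend on deposited CPM and 2 and 6 with no filter, both of which tested all 43 keratins, 2 and 5 with the sex term, and 1 lower with at least 1 CPM in 3 libraries, where Krt2 was not tested. With the replicate block 0 were called and 3 were lower at an unadjusted p under 0.05. Same-numbered libraries did not deviate together (correlations -0.26, -0.01 and -0.22), so the numbers were not taken as pairs.

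Of the 34 tested keratins, 20 kept the sign of their log2 difference in every alternative. Krt23 was -0.0131 with upper-quartile factors and -4.35e-05 with limma-trend, and Krt9 was 0.0293 with limma-voom and 0.0339 with the sex term. Without 1 library, the log2 difference ranged from -0.62 to 0.50 for Krt1, -0.13 to 0.0366 for Krt13, -0.11 to 0.00765 for Krt14, -0.17 to 0.0198 for Krt16, -0.24 to 0.0535 for Krt17, -0.13 to 0.41 for Krt222, -0.12 to 0.12 for Krt23, -0.13 to 0.25 for Krt27, -1.03 to 0.00784 for Krt31, -0.0855 to 0.28 for Krt4, -0.16 to 0.13 for Krt6b, -0.59 to 0.38 for Krt9, -0.34 to 0.73 for Krt19 and -0.89 to 0.17 for Krt75. The cause was not tested. The difference between the groups in each pool share moved by less than the share's spread within the groups, with another transcript length and without each library. For the basal, suprabasal and stress lists that spread was wider than the difference itself, so a change of sign does not count as a move. Without Plg WT 1 the basal and suprabasal differences changed sign. Depth limits the 9 untested keratins and Krt2.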
